A study of Rattus norvegicus with 21 samples.

Results

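In renal cortex of ZDSD rats, a diabetic strain, 52 of the 26404 genes counted differed from SD rats by at least 3-fold. The difference was of similar extent in untreated and in DMT-treated rats. Of the 52 genes, 19 were higher and 33 were lower in both ZDSD groups. The members were chosen by their values in CPM (counts of a gene per 1000000 counts of the library, corrected by the TMM factors of edgeR) in 19 libraries. A member had a mean of at least 1 CPM in a group. Its SHAM and DMT means, each with 0.1 added, were both at least 3-fold above or both at least 3-fold below the SD mean. The SHAM and DMT means, each again with 0.1 added, lay within 1.5-fold of each other, and no SD rat overlapped with any ZDSD rat. Since these values chose the members, the differences from SD rats and the closeness of SHAM and DMT-treated rats are given below as a description. Calls from the model across all genes are counted for completeness, and nothing is read from them for the members.

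A mean of 1 CPM or more in some group was reached by 13820 genes. Of these, 185 lay at least 3-fold from SD rats in the same direction in both ZDSD groups, and 127 of these had SHAM and DMT means within 1.5-fold. Requiring no overlap of rats left 53 genes. A stretch of chromosome 1 from 100.37 to 101.16 Mb was left out by definition and removed 1 gene. That gene, at chr1:101151631-101155517 of the rn5 build, had means of 17.1 CPM in SD, 1.16 CPM in SHAM and 1.24 CPM in DMT-treated rats. A region on chromosome 20, within 1.5 Mb of the gene at chr20:6936229-6938839, was left out as well and removed no gene. The member ENSRNOG00000029386, at chr20:5245094-5248485, lies outside this region but close to its border.

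The ZDSD rat was bred by crossing a Sprague Dawley line prone to diet-induced obesity with lean rats of the Zucker Diabetic Fatty line, followed by selection for diabetes. It develops obesity, diabetes and kidney injury with an intact leptin receptor. SD rats are an outbred stock, in which unrelated animals carry different alleles of many genes. The renal cortex consists mostly of proximal tubule, with glomeruli, distal segments, vessels and immune cells, and an RNA-seq library of cortex averages over all of them. Among other sources, a lower count in such a library can come from fewer cells of a type or from less RNA per cell. These cannot be told apart here.

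The 21 libraries came from renal cortex of rats aged 37 weeks and comprised 6 SD rats, 9 SHAM rats and 6 DMT-treated rats. SHAM rats were diabetic ZDSD rats with a sham laparotomy and without DMT. DMT-treated rats, named medical bypass in the labels, were sham-operated ZDSD rats given dietary restriction with fenofibrate, metformin, ramipril, rosuvastatin and liraglutide. Both ZDSD groups had received insulin degludec before the operation to lower glucose. SD rats were healthy controls, so strain, a history of diabetes and the sham operation differed together between SD and ZDSD rats. These cannot be told apart. In the paper, mean plasma glucose at study close was high in SHAM rats, and in DMT-treated rats it was no higher than in SD rats. High glucose at that time was thus not shared by both ZDSD groups. The labels describe the SD and SHAM libraries, but not those of DMT-treated rats, as analysed again from an earlier deposit. Total counts were 20896370 to 27597901 in SD rats, 14502127 to 23995113 in 7 SHAM rats and 22308943 to 26812590 in DMT-treated rats. The other two SHAM libraries, from rats 343 and 348, held 121511 and 101534 counts. The rule did not use them, and they are described separately. In the 19 deep libraries, 3 counts equalled 0.113 to 0.181 CPM, a floor that covers counting error only. The counts were deposited by Ensembl identifier, and none of the 26404 identifiers could be paired with a gene symbol here. The members are therefore given by position in rn5, and the largest differences in each direction also by identifier, and neither the functions of the members nor markers of renal cell types could be examined.

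Across the 19 members higher in ZDSD, the mean fold difference from SD rats, taken over both ZDSD groups, ranged from 3.24 to 11.7 with a median of 4.11. For the 33 lower members, it ranged from 3.13 to 149 with a median of 6.06, and 11 lower members differed by 8-fold or more, compared with 2 higher members. These folds are ratios of means with 0.1 CPM added, which understates them, and sets their order, where a group is near 0. For ENSRNOG00000015666, the higher member with the largest such fold, 11.7, the log2 fold-change fitted by edgeR was 5.45 (SE 0.64) in SHAM vs SD and 4.86 (SE 0.67) in DMT vs SD. The summed mean level of the higher members was 126 CPM in SD, 537 CPM in SHAM and 510 CPM in DMT-treated rats. The summed level of the lower members was 2244, 455 and 416 CPM. Per kilobase of exon, the median mean level in SD rats was 0.632 CPM for the higher and 5.20 CPM for the lower members. In ZDSD rats the corresponding values were 2.80 and 0.813 CPM per kilobase.

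**Figure D1:**
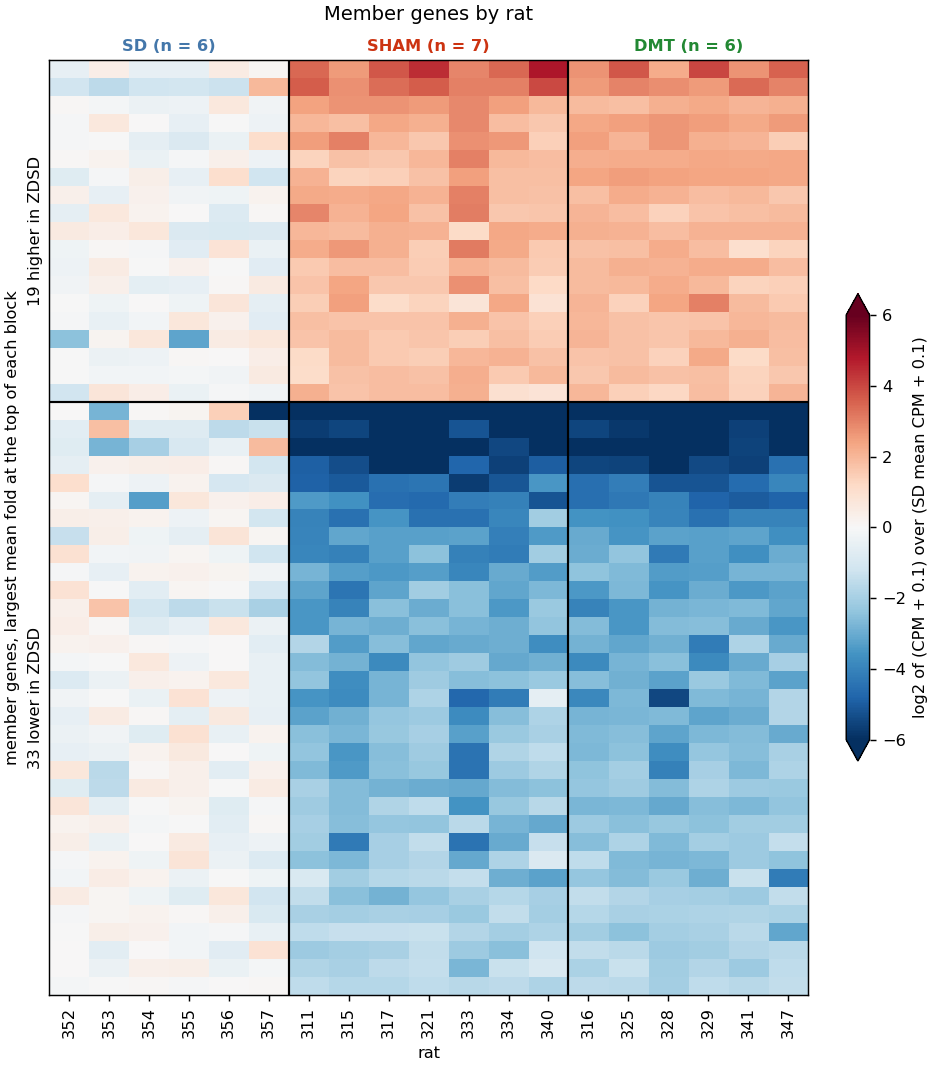
Level of each of the 52 members (rows) in each of the 19 deep libraries (columns), as log2 of CPM + 0.1 over the SD mean CPM + 0.1, with colours ending at -6 and 6. The 19 upper rows are red in the 13 ZDSD rats and the 33 lower rows blue, as the choice of members required, and single SD rats stand out in a few rows, such as rat 357 in the first lower row.

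The model across genes was fitted with edgeR to 14664 genes, and genes with an adjusted p-value under 0.05 and a fold-change of at least 1.3 were called. In SHAM vs SD 18.3% of the genes were called (10.3% higher and 7.95% lower in SHAM). In DMT vs SD the share was 18.2% (8.01% higher and 10.2% lower in DMT-treated rats), and in DMT vs SHAM 11.5% (4.12% higher and 7.36% lower in DMT-treated rats). Of the 52 members, 50 passed the filter on low counts, and all 50 were called in both comparisons with SD, as the rule implied. These 50 were 3.64% of the 1374 genes called in the same direction in both comparisons, which share the SD rats. Of the 13820 genes, 5.01% had no overlap between SD and ZDSD rats (2.24% with ZDSD rats higher and 2.77% with ZDSD rats lower). In DMT vs SHAM, 2 members were called, both lower in DMT-treated rats. The rule had bounded this difference, so nothing is read from these calls. Their number was 1 when rat 311, 315, 316, 317, 321, 325, 328, 329, 347, 352, 354, 355 or 356 was left out, and 4 without rat 333. For the gene at chr9:19202532-19237355, the mean was 4.01 ± 1.22 CPM in SD (SD, n=6), 24.0 ± 4.52 CPM in SHAM (n=7) and 17.0 ± 2.01 CPM in DMT-treated rats (n=6). For the gene at chr1:48534303-48590470, the means were 9.37 ± 1.87, 3.03 ± 0.564 and 2.05 ± 0.671 CPM. Among all higher members, DMT-treated rats had the higher mean in 8 and the lower mean in 11. Among the lower members, the numbers were 12 and 21.

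**Figure D2:**
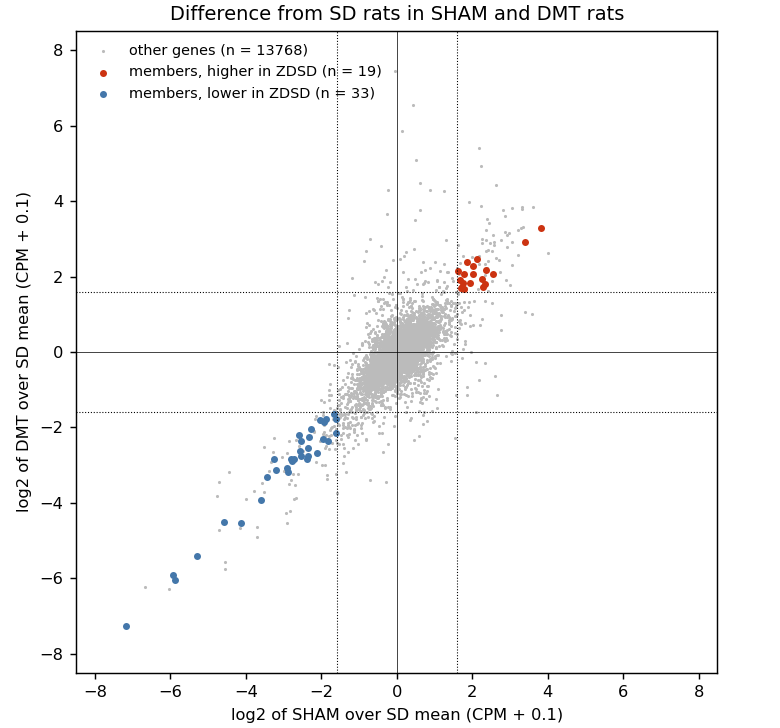
Log2 ratio of the SHAM over the SD mean (x axis) and of the DMT over the SD mean (y axis), each mean in CPM + 0.1, for 13820 genes, with dotted lines at 3-fold. Both axes share the SD mean. The members lie near the diagonal beyond both lines, and lower members reach farther from 0 than higher members.

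The genes nearest to the 3-fold limit on either side were as follows. The members just inside were, among those higher, the genes at chr6:66448763-66793162 (smaller of both folds 3.07) and chr1:62626294-62626824 (3.19), and among those lower, chr5:161540977-161553468 (3.02) and chr1:48534303-48590470 (3.03). Just outside lay chr7:83387129-83521467 (2.91) and chr20:5236559-5238631 among genes higher in ZDSD, the latter with 3.44 CPM in SD, 8.73 in SHAM and 8.91 CPM in DMT-treated rats and thus farther from the limit. Among genes lower in ZDSD, chr8:14504021-14593187 (2.96) and chr2:275643169-275656977 (2.94) were just outside.

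Several lower members were close to absence of counts in ZDSD cortex. In 8 of the 33, no ZDSD rat had more than 10 counts. ENSRNOG00000029386, at chr20:5245094-5248485, had the largest difference of all members. Its level in SD rats was 0.154 CPM at the lowest, 16.7 at the median and 43.5 at the highest. Among the 13 ZDSD rats, SHAM rats 311 and 321 and DMT rat 341 had 1 count each and the others had 0. SD rats were spread widely as well, with 3 counts in rat 357 and 905 counts in rat 356. The separation of rat 357 from the ZDSD rats thus rested on 3 counts, compared with at most 1. Over all rats, SD libraries held 2192 counts and ZDSD libraries 3, a ratio of levels, scaled to total counts, of 1443 (95% interval 493 to 7004, counting error only). The gene at chr1:82787111-82789825 had 791 counts in SD rats and 2 in ZDSD rats, a ratio of 781 (216 to 6462). Its level in SD rats was 0.832 CPM at the lowest, 3.50 at the median and 24.1 at the highest, without overlap with ZDSD rats. Rat 357 held 470 of the 791, and without it, a choice made after the data were seen, the ratio was 371 (102 to 3080). For ENSRNOG00000029386, the ratio was 994 (340 to 4829) without rat 356.

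The single-exon gene at chr13:76606608-76608212 had 52 to 243 counts in SD rats, with a median of 4.52 CPM and a highest value of 10.3 CPM. In ZDSD rats it did not exceed 6 counts, and its mean was 0.117 ± 0.117 CPM in SHAM and 0.127 ± 0.0802 CPM in DMT-treated rats. Here the lowest SD rat was 5.70-fold above the highest ZDSD rat, with 0.1 CPM added to the value of each rat, as in all such margins below. The gene at chr7:116269085-116273202 had 18 to 64 counts in SD rats and at most 7 counts in ZDSD rats. The remaining 4 of these 8 members had SD means between 1.01 and 1.92 CPM. They lie at chr1:170384257-170407542, chr2:262193376-262224625, chr5:61336232-61339489 and chrX:35691378-35696894, with at most 4, 10, 4 and 2 counts in any ZDSD rat.

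ENSRNOG00000046170, at chr1:13504948-13508160, was abundant in SD rats and remained well detected in ZDSD rats. Its values in SD rats were 192 CPM at the lowest, 335 at the median and 1989 at the highest. In SHAM rats they were 5.58, 8.56 and 15.6 CPM, and in DMT-treated rats 4.56, 9.04 and 12.7 CPM. The highest ZDSD rat was thus 12.2-fold below the lowest SD rat, the widest margin of any member. The SD mean of 575 ± 696 CPM (n=6) was raised by rat 353 alone, and the other SD rats did not exceed 370 CPM. The log2 fold-change of SHAM vs SD was -5.88 (SE 0.54) with all deep libraries and -4.92 without rat 353.

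A gene of high level in all 3 groups was found at chr5:161540977-161553468, with 762, 983 and 1298 CPM as lowest, median and highest value in SD rats. SHAM rats had 151, 335 and 523 CPM, and DMT-treated rats 220.3, 284 and 397 CPM. All SD rats lay above all ZDSD rats, and SHAM and DMT-treated rats overlapped. At chr1:185007568-185105409, SD rats had 43.0 to 79.2 CPM and SHAM and DMT-treated rats had medians of 8.10 and 8.37 CPM. A single rat lay apart in each of the ZDSD groups, rat 311 with 19.6 CPM and rat 341 with 18.4 CPM. At chr19:42430120-42518700, SD rats had 12.8 to 57.0 CPM, whereas SHAM rats had 1.85 to 3.77 and DMT-treated rats 2.46 to 3.96 CPM. The gene at chr6:36910714-36922551 had the smallest mean fold among the lower members, 3.13, with 20.3 ± 1.03 CPM in SD, 6.39 ± 0.557 in SHAM and 6.45 ± 0.807 CPM in DMT-treated rats. Its groups were narrow, so that the lowest SD rat was 2.62-fold above the highest ZDSD rat.

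Among the members higher in ZDSD, ENSRNOG00000015666 at chr19:32551493-32622091 had the largest difference. SD rats had 0 to 2 counts each, with a median of 0.0257 and a highest value of 0.0962 CPM. SHAM rats had 0.717 CPM at the lowest, 1.42 at the median and 3.92 at the highest, and DMT-treated rats 0.541, 1.14 and 2.12 CPM. Every ZDSD rat thus lay above the SD rats, with 12 to 66 counts, while both ZDSD groups overlapped. The SHAM and DMT means of 1.86 and 1.24 CPM met the 1.5-fold limit only with the 0.1 CPM added to each. When each of the 19 rats was left out in turn, the gene met the rule 12 times.

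Other higher members with many counts in all groups had smaller folds. The gene at chr16:48028067-48150740 had 34.0 ± 17.4 CPM in SD, 138 ± 31.2 in SHAM and 142 ± 9.37 CPM in DMT-treated rats. At chr8:47022640-47046713 the means were 18.1 ± 3.45, 60.9 ± 13.3 and 59.8 ± 16.3 CPM, and at chr5:171665221-171700125 they were 15.4 ± 3.61, 52.8 ± 11.8 and 49.4 ± 6.73 CPM. In each of these the highest SD rat lay below the lowest ZDSD rat by a margin of 1.39- to 1.69-fold. Over the 19 higher members this margin ranged from 1.06 to 3.27 and reached 2-fold in 6. Over the lower members it ranged from 1.03 to 12.2 and reached 2-fold in 15.

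The spread within groups is given as a description, since the rule also shaped it. No overlap was allowed, a far SHAM or DMT-treated rat moves the means that had to lie within 1.5-fold, and a far SD rat moves the SD mean from which folds were taken. The standard deviation of log2(CPM + 0.1) had a median over members of 0.52 in SD, 0.53 in SHAM and 0.34 in DMT-treated rats. Over all 13820 genes these medians were 0.16, 0.18 and 0.12. A larger share of the members was low in counts, since 36.5% of them and 16.4% of all these genes had a highest group mean under 5 CPM, and the part of this in the spread was not tested.

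In 6 members (11.5%), SD rats were split by a gap of at least 3-fold between adjacent values, compared with 0.695% of all 13820 genes. A gap of this size in SHAM or DMT-treated rats was present in 1 member (1.92%) and in 1.07% of all genes. SD rat 357 was set apart in 3 of the 6 members, alone each time, and other SD rats in the remaining 3. At chr1:62626294-62626824, a single-exon gene higher in ZDSD, SD rats 352 and 355 had 3.60 and 2.12 CPM, and the other 4 had 22.3 to 32.2 CPM. SHAM rats had 56.1 CPM at the lowest, 64.7 at the median and 75.7 at the highest, and DMT-treated rats 64.0, 75.4 and 87.6 CPM. Among SD rats, this gene thus showed separate levels. Its separation from all ZDSD rats, by a margin of 1.74-fold, was required by the rule.

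ENSRNOG00000037374, at chr7:116450238-116453537 and higher in ZDSD, had 30.7 CPM in SD rat 357 and 2.54 to 3.59 CPM in the other 5. SHAM rats had 52.8, 80.4 and 122 CPM as lowest, median and highest value, and DMT-treated rats 46.6, 57.5 and 84.5 CPM. On a log scale, rat 357 therefore lay nearer to the ZDSD rats than to the rest of its own group. The log2 fold-change of SHAM vs SD was 3.44 (SE 0.49), and 4.67 without rat 357. At chr4:61491248-61503814, a gene lower in ZDSD, SD rat 354 had 3.78 CPM and the other SD rats 26.2 to 60.1 CPM. The highest ZDSD rat had 3.48 CPM, so that rat 354 was at the level of the ZDSD rats, next to SHAM rat 311. The same rat 357 was also the lowest SD rat for ENSRNOG00000029386 and the highest for the gene at chr1:82787111-82789825, and rat 353 was the highest for ENSRNOG00000046170.

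**Figure D3:**
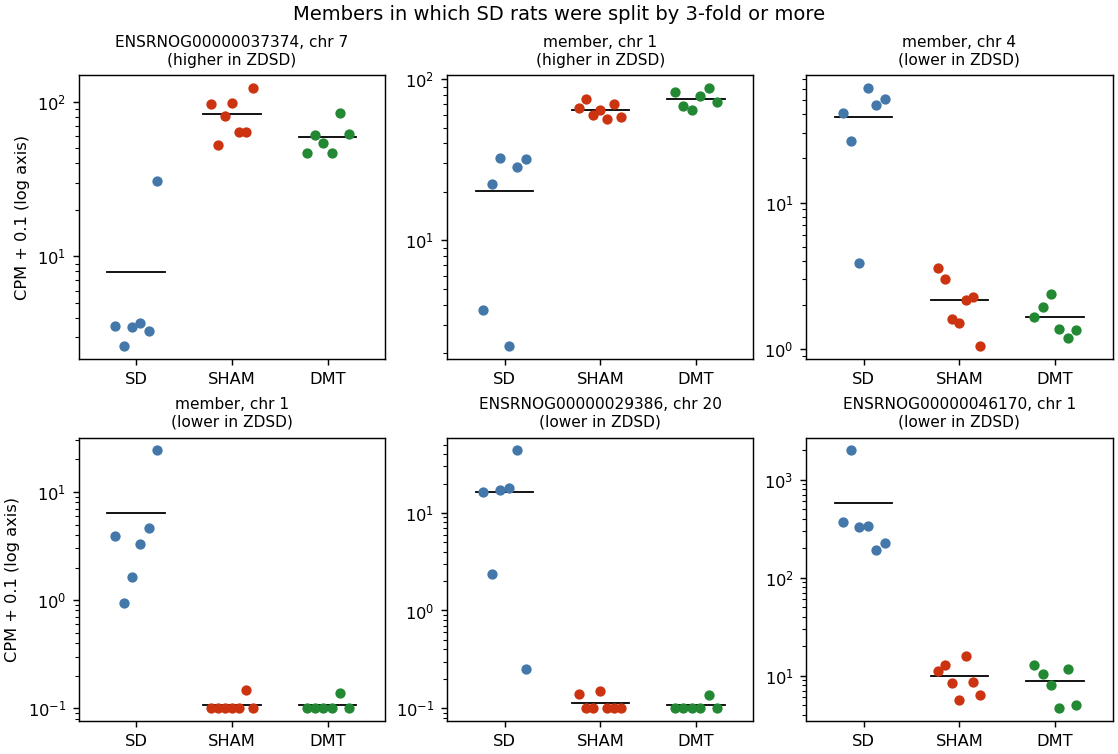
CPM + 0.1 on a log axis in each SD (n=6), SHAM (n=7) and DMT-treated rat (n=6) for the 6 members in which SD rats were split by at least 3-fold, with a line at each group mean. In each panel 1 or 2 SD rats lie apart from the others, toward the ZDSD level for SD rat 357 in ENSRNOG00000037374 and ENSRNOG00000029386 and for SD rat 354 on chromosome 4.

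Some rats were at the end of their group more often than over all genes. DMT rat 328 was the lowest DMT-treated rat in 15 of 33 lower members (45.5%, compared with 23.5% of all 13820 genes). SD rat 357 was the lowest SD rat in 13 of 33 (39.4%, compared with 17.8%). Among SHAM rats, rat 340 was the highest in 14 of 33 lower members (42.4%, compared with 21.9%), and rat 333 was the highest in 11 of 19 higher members (57.9%, compared with 26.2%). SHAM rat 333 also had the fewest counts of the deep libraries. Without rat 340 the rule gave 74 genes, 48 of them among the 52.

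Rats 343 and 348 gave a view of the members that the rule had not used. Between them, counts of 5209 genes differed by no more than sampling noise (chi-square 1.02 for each degree of freedom, p=0.195). They were therefore counted as 1 sample of 223045 counts, which gives no replicate check and no test. In the deep libraries, rats of a group varied beyond counting error, with a common coefficient of variation of 0.158 in edgeR. Whether rats 343 and 348 gave separate RNA, independent of the deep libraries, was not tested. For 10 members, the SD and SHAM means differed by at least 10 counts at this depth, and in all 10 the counts lay nearer to the SHAM mean than to the SD mean. The 95% Poisson interval, which covers counting error only, lay past the SD mean in 10 and held the SHAM mean in 9. It lay past the SD rat nearest to ZDSD in 5. With ENSRNOG00000046170, 4 counts were found (interval 1.09 to 10.2), where 2.31 were expected at the SHAM mean and 136 at the SD mean. ENSRNOG00000037374 had 17 counts (9.90 to 27.2), compared with 19.6 and 1.85 expected.

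The exception among the 10 intervals was the gene at chr5:161540977-161553468. It had 120 counts (99.5 to 143), between the 78.9 expected at the SHAM mean and the 239 at the SD mean, and just below the 124 expected at the highest SHAM rat. With a difference of at least 5 expected counts, 14 of 15 members lay nearer to SHAM. Nearness was taken on the log2(CPM + 0.1) scale. The remaining one, at chr19:42430120-42518700, was nearer to SD on this scale but not in counts, with 3 counts, compared with 0.708 expected at the SHAM mean and 7.85 at the SD mean. The 42 members with a difference under 10 counts were summed by direction. The 15 higher of these had 44 counts (32.0 to 59.1), compared with 45.3 expected at SHAM means and 11.0 at SD means. The 27 lower had 14 counts (7.65 to 23.5), compared with 10.8 and 71.6.

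**Figure D4:**
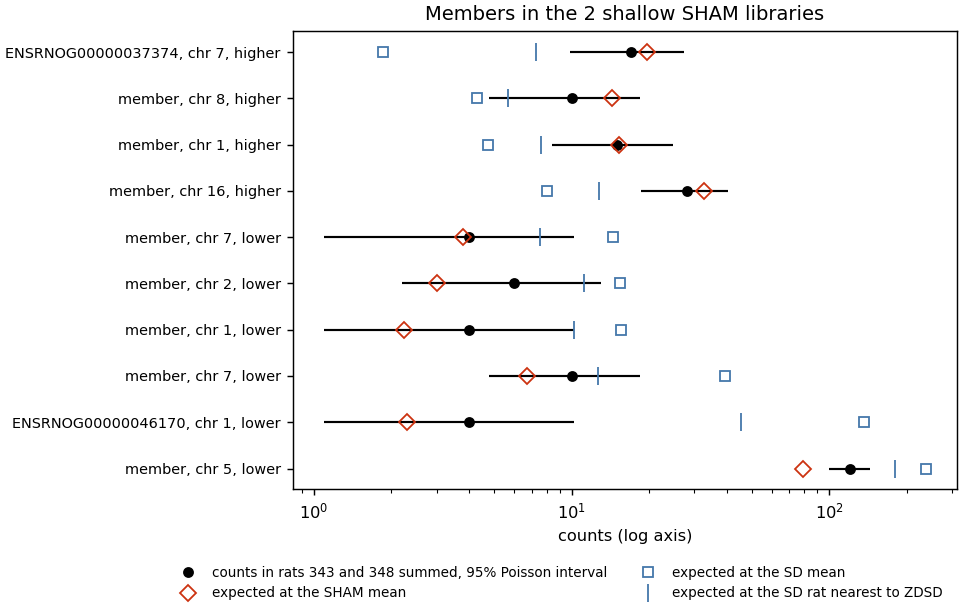
Counts of rats 343 and 348 summed (black points, with 95% Poisson intervals, log axis) for the 10 members with an expected difference of at least 10 counts, beside the counts expected at the SHAM mean (diamonds), at the SD mean (squares) and at the SD rat nearest to ZDSD (bars). All 10 points lie nearer to the diamonds than to the squares.

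The members were spread over 17 chromosomes, with 10 on chromosome 1 (19.2%, compared with 12.6% of the 13820 genes) and 1 on the X chromosome. Their median exon length was 2183.5 bp, compared with 2040 bp, and the median number of exon blocks was 9 in both sets. Of the members 4 (7.69%) had 1 exon, compared with 5.25%. An overlapping gene on the same strand was annotated for 2 members (3.85%, compared with 4.66%) and on the other strand for 1 (1.92%, compared with 10.2%). Fragments in such overlaps on the same strand were not counted.

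In 3 stretches, members lay within 0.5 Mb of each other, 7 members in all. On chromosome 7, a stretch of 184453 bp held 3 members. Neighbouring genes at chr7:116269085-116273202 and chr7:116315542-116320534 were lower in ZDSD, and ENSRNOG00000037374, 129704 bp farther on, was higher. The gene at chr7:116315542-116320534 had 61.3 ± 15.6 CPM in SD, 16.0 ± 2.78 in SHAM and 16.9 ± 1.01 CPM in DMT-treated rats. One further gene between them was tested, and its log2 fold-change was 1.16 in SHAM vs SD, where it was called, and 0.71 in DMT vs SD, where it was not. Along this stretch, the first 2 of these 4 genes were lower and the last 2 were higher in SHAM rats.

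On chromosome 8, the members at chr8:116070039-116084385 and chr8:116227802-116319071, 143417 bp apart, were both higher in ZDSD. The first had 2.10 ± 0.678 CPM in SD, 8.38 ± 3.35 in SHAM and 7.76 ± 1.84 CPM in DMT-treated rats, and the second 1.19 ± 0.364, 4.34 ± 0.682 and 5.33 ± 0.548 CPM. Of 7 other tested genes between them, 2 were called in SHAM vs SD, and 1 was called in both comparisons, as lower. On chromosome 18, a higher member at chr18:29215748-29224664 lay 445394 bp from a lower member at chr18:29670058-29672442. The higher had means of 0.821, 3.24 and 4.75 CPM in SD, SHAM and DMT-treated rats, and the lower 2.22, 0.364 and 0.385 CPM. Of 7 other tested genes in this stretch, 1 was called in both comparisons.

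**Figure D5:**
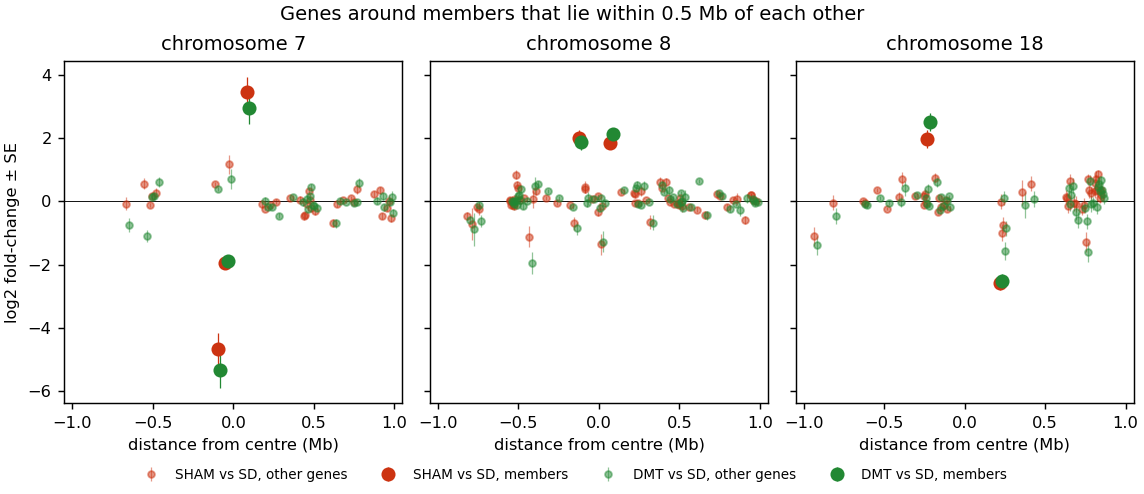
Log2 fold-change ± SE (edgeR) in SHAM vs SD (red) and DMT vs SD (green) of the tested genes within 1 Mb of the centre of the 3 stretches, by distance from that centre, with members as large points. Members stand apart from most genes around them, in opposite directions on chromosomes 7 and 18.

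Taking all members, 575 other tested genes lay within 0.5 Mb of one. Of these 20.7% were called in SHAM vs SD and 11.0% were called in the same direction in both comparisons, compared with 18.0% and 9.06% of all 14614 tested genes that are not members. The median log2 fold-change of SHAM vs SD was 0.01 in both sets. The shares were thus near the background, although single neighbours moved with or against a member. The following were chosen after their values were seen. Next to ENSRNOG00000029386, at a distance of 6463 bp, the gene at chr20:5236559-5238631, the gene just outside the 3-fold limit, was higher in ZDSD, with a log2 fold-change of 1.35 in SHAM vs SD and 1.36 in DMT vs SD. Within 50 kb of the lower member at chr7:123601169-123605722, 8 genes were tested and 4 of them were called lower in both comparisons. The member itself had 53.7 to 264 CPM in SD, 7.74 to 48.2 in SHAM and 9.83 to 46.2 CPM in DMT-treated rats. One gene 48680 bp from the lower member at chr4:61491248-61503814 was lower as well, with a log2 fold-change of -2.22 in SHAM vs SD and -2.15 in DMT vs SD.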

How the data were processed

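One file of counts per rat was deposited, with 26404 Ensembl genes and no normalization. Per the file headers, the authors used featureCounts (1.6.4) for read pairs on exons of rn5, with the strand setting for reverse reads. Fragments with several positions or genes were left out. The authors' trimming (Trim Galore) and mapping (STAR) are given in the paper's methods. Members and gene lists were chosen with earlier results of these data known. The 12 gene lists and the cell type markers are by symbol and could not be applied, since 0 of 26404 identifiers matched the gene table, so the text names the 2 largest mean folds in each direction by identifier. These folds had 0.1 CPM added to each mean, which decides the order among genes near 0 in a group: the gene at chr1:82787111-82789825, given by position, had a lower ZDSD level than ENSRNOG00000046170. Other genes are given by position: those near the 3-fold limit, within 0.5 Mb of another member, split among SD rats, near absence, called in DMT vs SHAM or measurable in rats 343 and 348.

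Libraries under 1000000 counts (rats 343 and 348) were left out of the rule and the model. CPM used TMM factors of all listed genes. The model used edgeR (4.0.16, R 4.3.3) with filterByExpr (minimum count 10, total 15), TMM and quasi-likelihood tests with Benjamini-Hochberg adjustment. Replicates were single rats per the labels. In counts simulated for 14578 genes, 97 of 100 genes changed 3-fold and 70 of 100 changed 1.5-fold were called by edgeR in SHAM vs SD, with 4 false calls. DESeq2 called 99 and 75, with 14 false calls, and made 24 false calls in DMT vs SD. Alternatives included DESeq2 (1.42.0), size factors, other filters, pseudocounts and thresholds, all SHAM libraries, and leaving out each rat. Figures were drawn with matplotlib (3.10.9).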

Additional observations from a re-analysis of the deposited data

Results flagged for a closer look

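For 32 members whose values are given by rat or group, the 96 groups of rats were examined by Dixon's criterion. It looks for a single rat far from the rest, and 19 groups had one. Chance gives about 1 in 20, but some of the 32 were chosen because their SD rats were split. No excess is therefore read from this number. Over all 52 members a rat stood apart in 12 of the SD groups (23.1%, compared with 6.90% of the 13820 genes), in 9 SHAM groups (17.3%, compared with 12.0%) and in 8 DMT groups (15.4%, compared with 5.83%). The rule used these values, so the shares are a description, and the reasons were not tested.

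Among higher members, SD rat 357 had 30.7 CPM for ENSRNOG00000037374 (others 2.54 to 3.59) and 22.6 CPM at chr5:171665221-171700125 (others 13.3 to 15.2). SD rat 356 had 1.25 CPM at chr6:66448763-66793162 (others 0.462 to 0.730) and 6.35 CPM at chr9:19202532-19237355 (others 3.09 to 4.24). DMT rat 328 had 124 CPM at chr16:48028067-48150740, below the other DMT-treated rats (144 to 149).

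Among lower members, SD rat 353 had 1989 CPM for ENSRNOG00000046170 (others 192 to 370) and 5.11 CPM at chr5:61336232-61339489 (others 0.308 to 1.86). At chr1:82787111-82789825, SD rat 357 had 24.1 CPM (others 0.832 to 4.57). SD rat 354 had 3.01 CPM at chr2:262193376-262224625 (others 1.39 to 1.92). At chr4:42281456-42448568, SD rat 355 had 24.8 CPM (others 9.81 to 13.3) and SHAM rat 340 had 9.10 CPM (others 0.423 to 3.67). SHAM rat 311 and DMT rat 341 had 19.6 and 18.4 CPM at chr1:185007568-185105409 (other SHAM rats 4.88 to 11.0, other DMT-treated rats 3.48 to 9.03). SHAM rat 334 had 21.9 CPM at chr7:116315542-116320534 (others 13.0 to 15.8).

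The remaining cases rest on few counts. SHAM rat 340 had 7 counts (0.416 CPM) at chr7:116269085-116273202, where the other SHAM rats reached 0.0891 CPM, and 6 counts (0.357 CPM) at chr13:76606608-76608212, where they reached 0.147 CPM. At chr1:82787111-82789825, SHAM rat 334 (0.0463 CPM) and DMT rat 341 (0.0376 CPM) had 1 count each and the others of their groups 0, and DMT rat 341 likewise had 1 count (0.0376 CPM) for ENSRNOG00000029386.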

How the results depend on the processing

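The number of members depended mainly on the limits of the rule. It was 33 with a minimum mean of 5 CPM, 111 with a 2-fold and 32 with a 4-fold limit, and 31 with SHAM and DMT means within 1.2-fold, compared with 52. With DESeq2 size factors, other TMM genes, other low minimums, 0.5 added to each mean or a 2-fold closeness it was 47 to 70. All 9 SHAM libraries gave 43 genes (32 of the 52), and rats 343 and 348 summed gave 47 (39 of the 52). Leaving out 1 rat at a time gave 47 (without rat 334) to 74 (without rat 340) genes, and 33 of the 52 members met the rule each time. Without a fold-change threshold, DMT vs SHAM had 2975 calls, SHAM vs SD had 5131 and DMT vs SD had 4682, compared with 1684, 2681 and 2663. The number of members called in DMT vs SHAM was 2, and 1 to 4 when a rat was left out (4 without rat 333). At an expected difference of at least 20 counts, 4 of 4 members lay nearer to SHAM in rats 343 and 348. The other alternatives kept counts within 1.5 times and each of the 3 identified genes in the model on its side of the threshold. No paired analysis was possible because the labels number rats, not replicates shared between groups. The floor of 12.7 CPM for 3 counts in the summed rats 343 and 348 limits what they can show.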
